A study of Homo sapiens with 9 samples.

Results

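The mitochondrially encoded respiratory chain genes are 10 genes of the 6499 in the deposited comparison of control and doxorubicin-treated fibroblasts. They were chosen by name, as the genes of mitochondrial DNA that encode subunits of respiratory complexes I, III and IV and were listed in that table. The rule names genes and uses no measured value, but it was set with earlier results of these data known. A gene is also listed only if it passed the authors' thresholds for a change on these libraries. Complex I is represented by MT-ND1, MT-ND2, MT-ND3, MT-ND4, MT-ND4L and MT-ND6, complex III by MT-CYB, and complex IV by MT-CO1, MT-CO2 and MT-CO3. The cells were WI-38, a cell line of human diploid fibroblasts from lung, used at population doubling 30. Control cells received DMSO, which the study's methods name as the solvent of oridonin but not of doxorubicin. The model group received 1 μM doxorubicin, a DNA-damaging anthracycline, for 12 h and then medium with DMSO for 48 h. Each group had 3 libraries, made from extracted total RNA. The study's methods do not state whether poly(A) RNA was selected or rRNA removed. A further group, given oridonin after doxorubicin, was not analysed here. The study's methods speak of independent experiments in general, but the sample labels do not say which libraries came from separate cultures. The p-values therefore measure the spread between these libraries, part of which may be technical.

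Human mitochondrial DNA is a small circle that encodes core subunits of the respiratory chain together with the rRNAs and tRNAs needed to translate them. Both strands are transcribed as long polycistronic RNAs by the mitochondrial RNA polymerase POLRMT, and most mRNAs are released when the tRNAs between them are cut out. The levels of the mature mRNAs therefore depend on processing and decay as well as on transcription. Complex I oxidises NADH, complex III passes electrons to cytochrome c, and complex IV reduces oxygen.

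All 10 genes lie without introns on the mitochondrial chromosome, with positions taken from GENCODE release 29 (GRCh38) by Ensembl identifier. Along the strand that carries heavy-strand transcripts they follow in the order MT-ND1 (chrM:3307-4262), MT-ND2 (chrM:4470-5511), MT-CO1 (chrM:5904-7445), MT-CO2 (chrM:7586-8269), MT-CO3 (chrM:9207-9990), MT-ND3 (chrM:10059-10404), MT-ND4L (chrM:10470-10766), MT-ND4 (chrM:10760-12137) and MT-CYB (chrM:14747-15887). MT-ND6 (chrM:14149-14673, minus strand) is the only one read from the light-strand transcript. The opposite origin is visible in the base composition, since MT-ND6 RNA held 35.6% G and 7.0% C, whereas the 9 heavy-strand genes held 9.5% to 16.2% G and 29.5% to 36.0% C. Total GC content overlapped, at 42.7% for MT-ND6 and 40.2% to 47.7% for the others. The first 60 bases of MT-ND6 and of 3 heavy-strand genes show this difference, with every G in capitals.
MT-ND6 (chrM:14614-14673, minus strand): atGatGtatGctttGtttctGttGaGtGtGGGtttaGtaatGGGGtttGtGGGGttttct
MT-ND3 (chrM:10059-10118, plus strand): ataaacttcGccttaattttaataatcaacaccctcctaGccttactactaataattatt
MT-CO1 (chrM:5904-5963, plus strand): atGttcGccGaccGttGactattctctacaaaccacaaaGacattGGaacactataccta
MT-ND1 (chrM:3307-3366, plus strand): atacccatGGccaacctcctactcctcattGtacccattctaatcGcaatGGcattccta
The MT-ND6 stretch held 21 G, against 2 in MT-ND3, 8 in MT-CO1 and 6 in MT-ND1.

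MT-ND4L and MT-ND4 are carried on a shared bicistronic mRNA and their reading frames overlap by 7 bases. The end of the first and the start of the second are shown because the results for the pair diverge, with the shared bases in capitals.
MT-ND4L, last 40 bases (chrM:10727-10766, plus strand): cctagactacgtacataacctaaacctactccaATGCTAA
MT-ND4, first 40 bases (chrM:10760-10799, plus strand): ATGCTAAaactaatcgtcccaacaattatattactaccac
Of the 10 genes, 6 have no complete stop codon in the DNA, which is made whole by the poly(A) tail. These are MT-ND1, MT-ND2, MT-ND3, MT-ND4, MT-CO3 and MT-CYB. Of the 5 genes below that passed the test for a change, 3 lack a complete stop, as their last 20 bases show, with the stop or its remnant in capitals, beside MT-ND4L with a complete one.
MT-ND3 (chrM:10385-10404, plus strand): aggattagactgaaccgaaT
MT-CO3 (chrM:9971-9990, plus strand): catctattgatgagggtctT
MT-ND1 (chrM:4243-4262, plus strand): agcattccccctcaaaccTA
MT-ND4L (chrM:10747-10766, plus strand): taaacctactccaatgcTAA

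The values were taken as TPM, a level per transcript length scaled to a fixed total in each library, meant to let levels of different genes be set side by side. The authors do not name the unit. The length correction was not tested for the shortest genes, MT-ND4L and MT-ND3, so their places among the others are less certain. TPM keeps no read depth, and the depth behind each value is unknown. The table lists only genes that the authors called changed on these same libraries, so its genes are a selected set and the tests here are not independent of that selection. Library profiles correlated at r = 0.992 to 0.995 within a group and 0.935 to 0.958 between groups, over log2 values of the listed genes tested.

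Within single libraries the 10 genes ranked between 1 and 38 among the listed genes by level. They held 7.45%, 7.51% and 7.76% of all TPM in the control libraries and 8.49%, 8.56% and 8.57% after doxorubicin. Every doxorubicin library lay above every control library, and the means were 7.57% ± 0.16 and 8.54% ± 0.044 (SD, n = 3), a difference of 0.97 percentage points. The exact two-sided permutation test gave p = 0.1, which is the smallest value that 3 against 3 libraries allow. As a share of the TPM of the listed genes alone the difference was 0.53 points, from 13.89% to 14.42%. Complex IV genes took 4.42% of all TPM in control and 5.05% after doxorubicin, complex I genes 2.88% and 3.19%, and MT-CYB 0.28% and 0.30%.

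In control cells MT-CO2 stood highest, followed by MT-CO1 and MT-CO3, whose libraries overlapped. Next came MT-ND4L and MT-ND4, which overlapped, then MT-ND3, then MT-ND1, MT-ND2 and MT-ND6, each overlapping the next, and lowest MT-CYB. After doxorubicin MT-CO2 was still highest and MT-CYB lowest by mean. MT-CO2 stood clear of the others, while MT-CYB, at 2884 to 3079 TPM, overlapped MT-ND4L, which was at 2920 TPM in doxorubicin library 2. MT-CO3 now lay above MT-CO1 without overlap, MT-ND3 overlapped MT-ND4, and MT-ND4L had moved down among MT-ND1, MT-ND6 and MT-ND2.

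**Figure D1:**
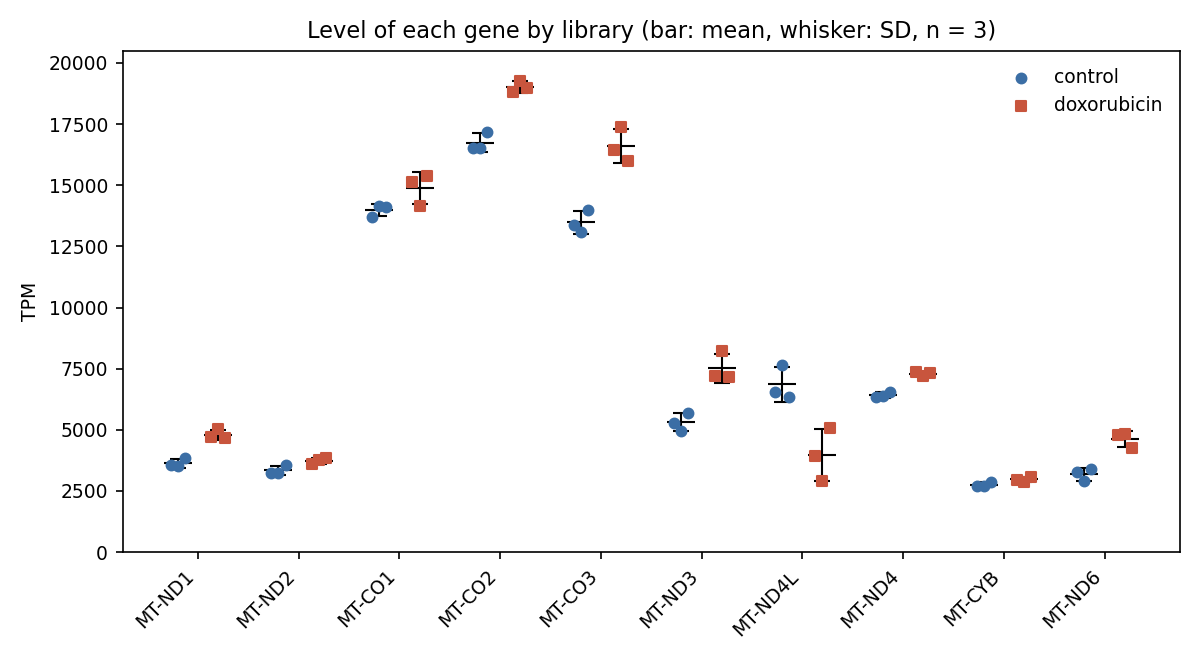
Level of each gene in TPM (linear axis) in the 3 control and 3 doxorubicin libraries, with points for libraries, bars for group means and whiskers for the SD. MT-CO2 was highest and MT-CYB lowest in both groups, and the libraries of the groups did not overlap for any of the 10 genes, with MT-ND4L alone lower after doxorubicin; under quantile normalization MT-ND2, MT-ND4, MT-CO1 and MT-CYB also turned slightly negative.

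Compared with control, MT-ND1, MT-ND3, MT-ND6 and MT-CO3 rose after doxorubicin by 1.23- to 1.45-fold and MT-ND4L fell to 0.58 of its control level. The other 5 genes were 1.06- to 1.14-fold higher and were not called here. In the authors' own comparison all 10 passed a fold change over 1.2 in either direction and p under 0.05, since only such genes are listed. The authors' fold changes were not used here. A call required a fold change over 1.2 and an unadjusted p under 0.05 in limma, fitted on log2(TPM + 1) over the 5721 listed genes whose mean reached 1 TPM, and the log2 fold changes are on that scale. All 10 genes passed that filter. Among these selected genes, 23.4% of those tested were called higher, 49% lower and 72.4% in either direction, against 4, 1 and 5 of these 10. The libraries of the groups did not overlap for any of the 10 genes, 9 being higher and 1 lower, beside 80.7% of all genes tested without overlap, 32.3% higher and 48.4% lower. The median log2 fold change was 0.18 for the 10 genes and -0.28 for all genes tested. These directions depend in part on how libraries are set level: after scaling by median ratios the same 9 genes were higher and all 9 were called, whereas under quantile normalization MT-ND2, MT-ND4, MT-CO1 and MT-CYB turned slightly negative, MT-CO2 was at 0, and only MT-ND3 and MT-ND6 were called higher. Quantile normalization sets each value by its rank in the library. MT-CO2 ranked 1 in every library, so its 0 was fixed in advance. MT-CO1 and MT-CO3 only exchanged ranks 3 and 4, so their changes of -0.11 and 0.11 mirrored each other. Among all genes called, 32.3% were higher in TPM, 54.7% after median ratios and 53.1% after quantile normalization. Of the 5721 genes tested, 1337 were called higher and 2805 lower in TPM. After median ratios 2536 were called higher and 2102 lower, and after quantile normalization 1919 higher and 1698 lower. Counts under these scalings, here and below, stand beside these numbers. In bulk RNA, fewer cells of a kind and less RNA per cell cannot be told apart.

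**Figure D2:**
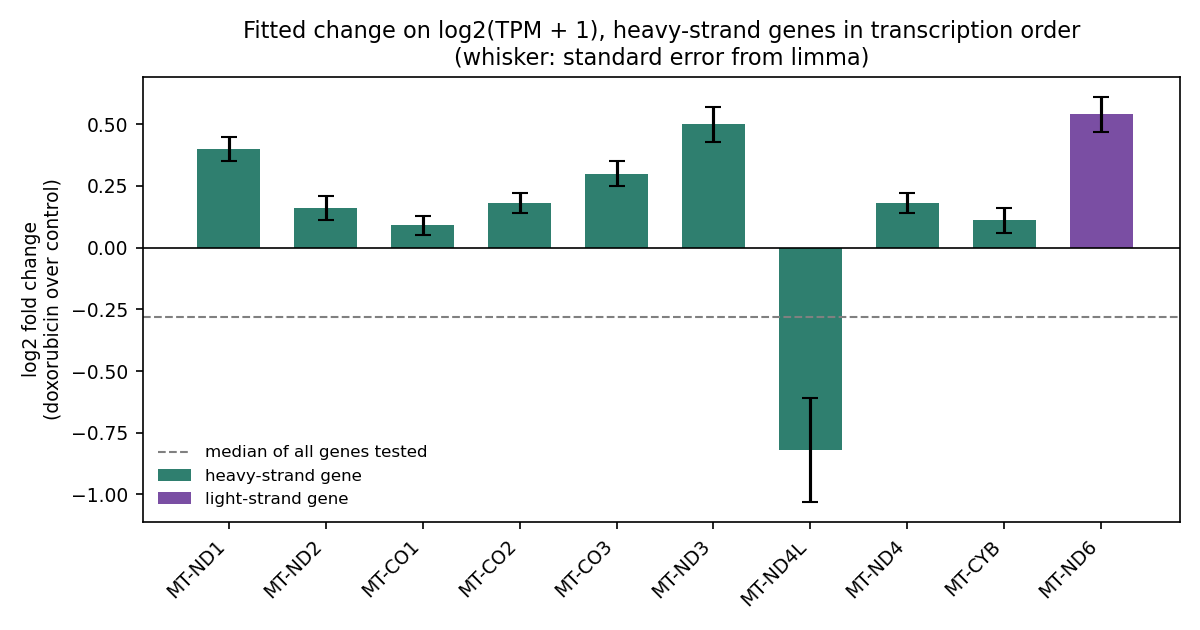
Log2 fold change (doxorubicin over control, log2(TPM + 1)) of each gene as a bar with its standard error from limma, the 9 heavy-strand genes in transcription order and the light-strand gene MT-ND6 last. The dashed line marks the median of all genes tested, -0.28, and MT-ND4L alone lay below it at -0.82, while under quantile normalization MT-ND2, MT-ND4, MT-CO1 and MT-CYB turned slightly negative.

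Among the complex I genes, MT-ND3, a small subunit whose matrix loop moves as the enzyme switches between its active and resting forms, was at 5276, 4958 and 5690 TPM in control and 7191, 8210 and 7149 TPM after doxorubicin. All doxorubicin libraries lay above all control libraries. The log2 fold change was 0.50 (SE 0.07, limma adjusted p = 0.000143). MT-ND1, a subunit at the junction of the membrane arm and the peripheral arm that forms part of the ubiquinone site, was at 3550, 3518 and 3843 TPM in control and 4686, 5022 and 4665 TPM after doxorubicin. Again the groups were separate, with a log2 fold change of 0.40 (SE 0.05, limma adjusted p = 0.000108).

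MT-ND2 and MT-ND4 are antiporter-like subunits of the membrane arm, which take part in proton pumping. MT-ND2 was at 3240, 3235 and 3542 TPM in control and 3601, 3773 and 3833 TPM after doxorubicin. MT-ND4 was at 6326, 6399 and 6552 TPM in control and 7364, 7193 and 7317 TPM after doxorubicin. Both were higher in every doxorubicin library than in any control library, but by less than the 1.2-fold threshold. Their log2 fold changes were 0.16 (SE 0.05, limma adjusted p = 0.0142) and 0.18 (SE 0.04, limma adjusted p = 0.00223).

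MT-ND4L, a small membrane subunit beside the antiporter-like ones, went the other way. It was at 6535, 7669 and 6362 TPM in control and 3941, 2920 and 5072 TPM after doxorubicin. Every doxorubicin library was below every control library, and the spread among the doxorubicin libraries, 1080 TPM (SD) around 3977, was wider than that of any other of the 10 genes. The log2 fold change was -0.82 (SE 0.21, limma adjusted p = 0.015). Its share of the TPM of the 10 genes went from 9.06% to 4.66%. At 297 bases MT-ND4L is the shortest of the 10 genes, reads were pairs of 150 bp, and it shares 7 bases with MT-ND4. The part of length and overlap in its values was not tested.

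Of the complex IV genes, which encode its catalytic core, MT-CO3 was at 13368, 13079 and 14000 TPM in control and 16426, 17364 and 15999 TPM after doxorubicin. The groups were separate and the log2 fold change was 0.30 (SE 0.05, limma adjusted p = 0.000302). MT-CO2, which carries the copper centre that receives electrons from cytochrome c, was at 16513, 16520 and 17182 TPM in control and 18818, 19273 and 18977 TPM after doxorubicin. Its libraries were also separate, and its log2 fold change of 0.18 (SE 0.04, limma adjusted p = 0.00167) stayed under the fold threshold.

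MT-CO1, which holds the site where oxygen is reduced, was at 13721, 14144 and 14118 TPM in control and 15127, 14158 and 15380 TPM after doxorubicin. Its second doxorubicin library lay just above the highest control library, and the log2 fold change was 0.09 (SE 0.04, limma adjusted p = 0.0823). MT-CYB, cytochrome b, the only subunit of complex III encoded in mitochondrial DNA, was at 2712, 2704 and 2861 TPM in control and 2967, 2884 and 3079 TPM after doxorubicin. The groups were narrowly separate and the log2 fold change was 0.11 (SE 0.05, limma adjusted p = 0.0518).

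MT-ND6, a membrane-arm subunit of complex I and the protein-coding gene of the light strand, was at 3255, 2889 and 3418 TPM in control and 4790, 4848 and 4237 TPM after doxorubicin. The libraries were separate, and its log2 fold change of 0.54 (SE 0.07, limma adjusted p = 0.000146) was the highest of the 10 genes. The sources used here do not state whether the libraries kept strand, and without strand reads from MT-ND6 and from heavy-strand RNA opposite it cannot be told apart. How RNA was selected for the libraries is not stated in the study's methods either, and its part in the level of MT-ND6 was not tested.

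The design allows the light-strand gene to be compared with the heavy-strand genes inside each library, where no scaling of libraries can enter. The log2 ratio of MT-ND6 to the geometric mean of the 9 heavy-strand genes was -1.0, -1.19 and -0.99 in control and -0.58, -0.55 and -0.81 after doxorubicin. The ratio was higher in every doxorubicin library, by 0.41 on the log2 scale or 1.33-fold, with means of -1.06 ± 0.11 and -0.64 ± 0.14 (SD, n = 3). Leaving out MT-ND3 and MT-ND4L from the heavy-strand mean left a difference of 0.33.

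Gene by gene, the ratio of MT-ND6 was higher against 7 of the 9 heavy-strand genes without overlap between groups. The log2 differences were 0.38 against MT-ND2, 0.36 against MT-ND4, 0.45 against MT-CO1, 0.35 against MT-CO2, 0.24 against MT-CO3, 0.43 against MT-CYB and 1.35 against MT-ND4L. Each of these gave p = 0.1 in the exact two-sided permutation test, the smallest value possible, so none could pass 0.05. Against MT-ND1 and MT-ND3 the groups overlapped, with log2 differences of 0.14 (exact permutation p = 0.2) and 0.04 (exact permutation p = 0.8), which do not show that these genes moved alike.

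**Figure D3:**
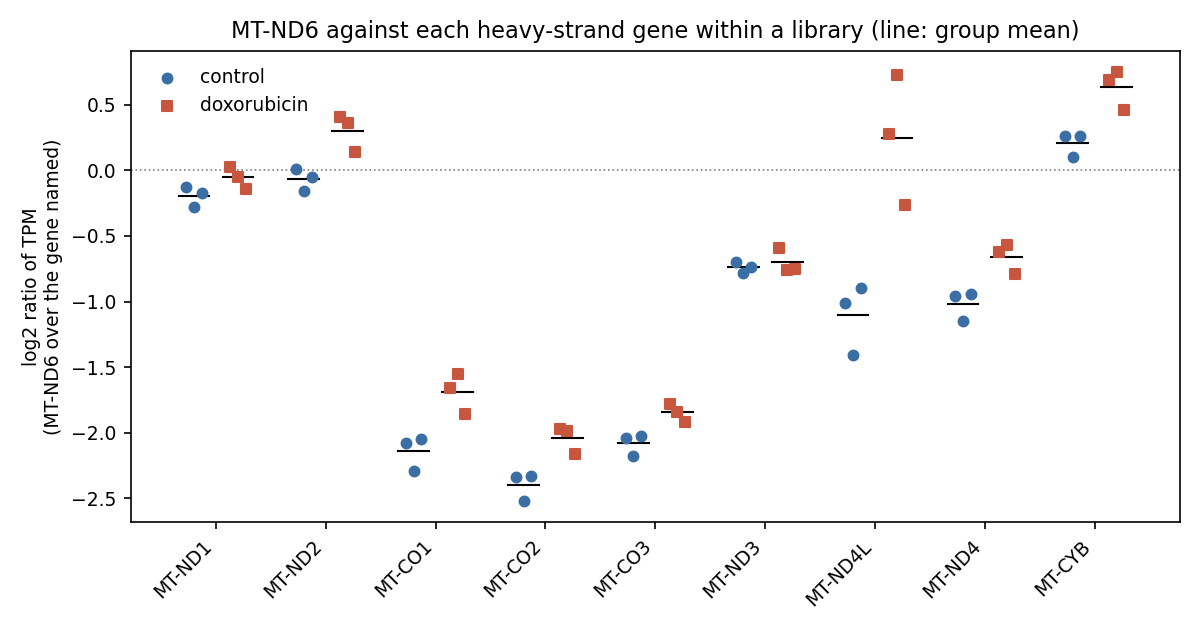
Log2 ratio of MT-ND6 to each of the 9 heavy-strand genes in each library, control against doxorubicin, with lines for group means and a dotted line at equal levels. The groups overlapped against MT-ND1 and MT-ND3 and were separate against the other 7 genes.

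Heavy-strand genes also changed relative to each other. The log2 ratio of MT-ND4L to MT-ND4, its partner on the same mRNA, was 0.05, 0.26 and -0.04 in control and -0.90, -1.30 and -0.53 after doxorubicin. The groups did not overlap, with a difference of -1.0 (exact permutation p = 0.1), and the part of the short length of MT-ND4L was not tested. Against MT-ND3, its neighbour on the other side, the difference for MT-ND4L was -1.32. MT-ND1 and MT-ND2 are also close on the chromosome, and their log2 ratio went from 0.13, 0.12 and 0.12 to 0.38, 0.41 and 0.28, a difference of 0.24 with no overlap. Within complex IV, the log2 ratio of MT-CO3 to MT-CO1 was higher by 0.21, while the ratio of MT-CYB to MT-CO1 differed by 0.02 with overlapping groups (exact permutation p = 0.6).

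The changes were set against the length of the genes and against their order on the chromosome. Without MT-ND4L, shorter genes had the larger log2 fold changes, with a rank correlation of -0.87 over 9 genes and between -0.92 and -0.68 in the 9 pairings of a control with a doxorubicin library. With MT-ND4L, the shortest at 297 bases, it was -0.36 over 10 genes. Along the heavy-strand transcript it was -0.27 over 9 genes. The points share libraries and the length scaling of TPM, so these are descriptions. Nuclear genes in the table showed a slope in the same direction, with a rank correlation of -0.47 over 5686 genes. Among those whose longest transcript was under 400 bases 13 of 26 were called higher and 1 lower, with a median log2 fold change of 0.76. The median was 0.42 from 400 to under 800 bases, 0.31 from 800 to under 1200 bases, 0.28 from 1200 to under 1600 bases and -0.41 at 1600 or more bases. The part of length, RNA quality or the length correction in the members' differences was not tested. MT-TS1, a tRNA gene of 69 bases and the only one of 22 mitochondrial tRNAs in the table, is listed at 0 in all 6 libraries.

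**Figure D4:**
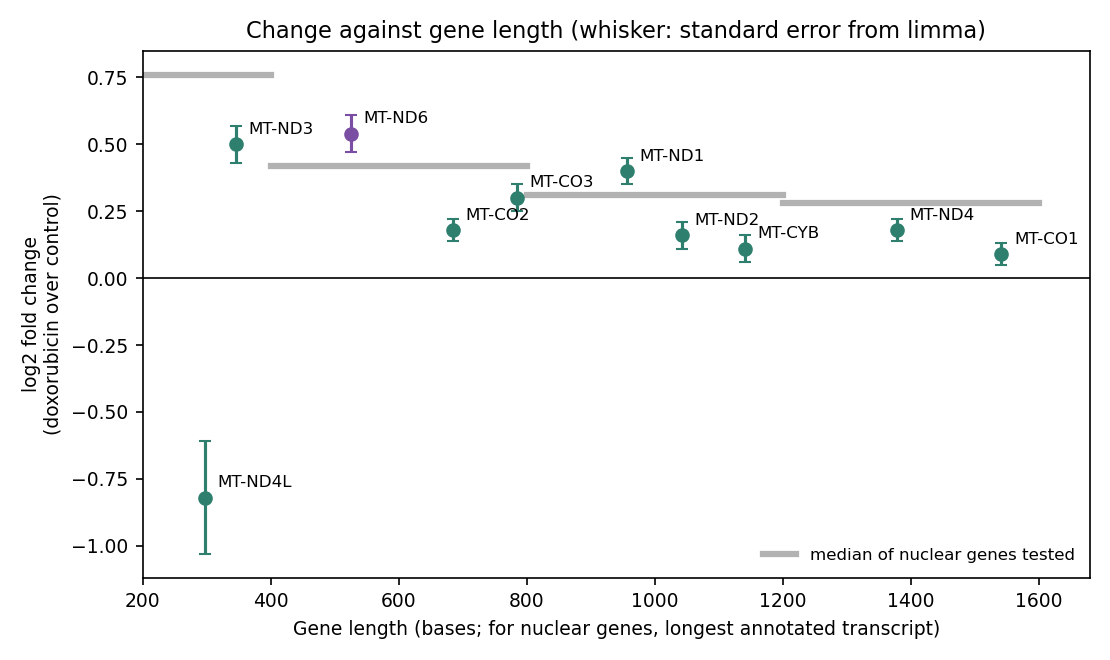
Log2 fold change against gene length in bases (linear axis) for the 10 mitochondrial genes with standard errors from limma, and grey lines for the medians of nuclear genes in the 4 length classes under 1600 bases. MT-ND3 (346 bases) and MT-ND6 (525 bases) lay highest, MT-CO1 (1542 bases) near 0, and MT-ND4L (297 bases) apart at -0.82, and under quantile normalization MT-ND2, MT-ND4, MT-CO1 and MT-CYB turned slightly negative.

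Inside the groups, the libraries were ordered in opposite ways by MT-ND4L and by the 4 genes called higher. MT-ND4L was highest in control library 2 and lowest in control library 3, and highest in doxorubicin library 3 and lowest in doxorubicin library 2. Its deviations from the group mean were -0.06, 0.17 and -0.10 in control and 0.02, -0.41 and 0.39 after doxorubicin on the log2 scale. MT-ND1, MT-ND3, MT-ND6 and MT-CO3 had exactly the reverse order in both groups, with deviations of -0.01, -0.10 and 0.10, then -0.06, 0.13 and -0.07, for MT-ND3. The other 5 genes did not reverse it in both groups. MT-ND4, MT-CO1 and MT-CO2 reversed it in neither, MT-ND2 and MT-CYB in control alone, and MT-CO1 and MT-CYB followed the order of MT-ND4L after doxorubicin. Among the other 5711 genes, 3.36% had the reverse order of MT-ND4L in both groups and 17.6% had its order. The median deviation of nuclear genes of 1600 or more bases was 0.00, 0.04 and -0.04 in control and -0.01, -0.08 and 0.09 after doxorubicin, and that of genes under 400 bases was -0.05, -0.01 and 0.07, then -0.01, 0.10 and -0.06. The libraries in which MT-ND4L stood high or low were thus those in which long nuclear genes stood high or low, and whether a common library property underlies both was not tested.

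**Figure D5:**
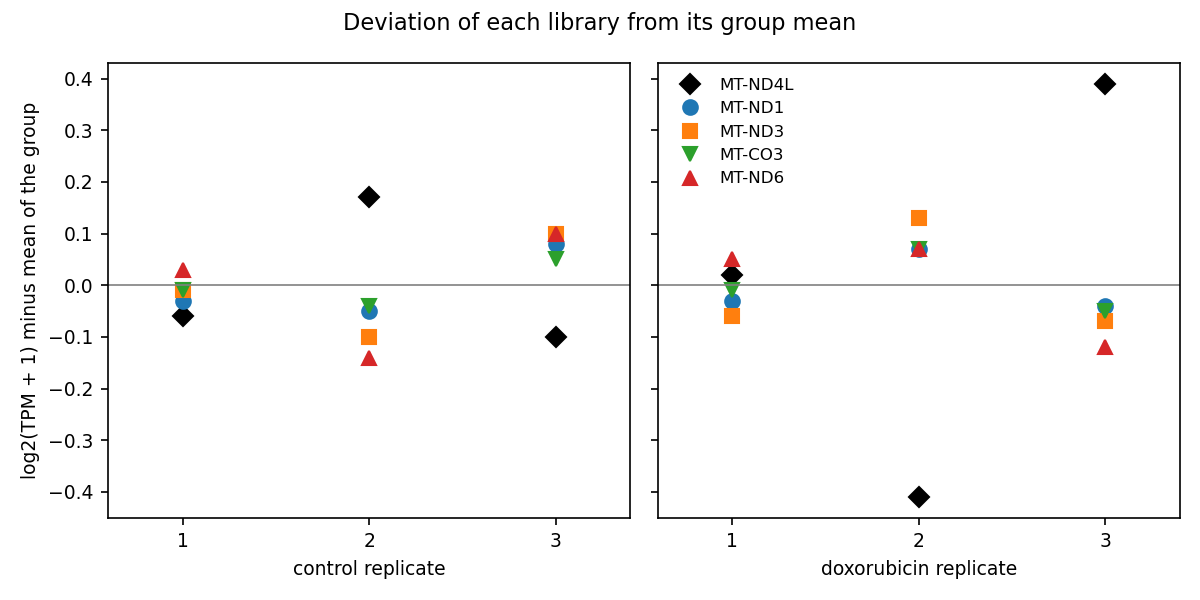
Deviation of each library from its group mean, in log2(TPM + 1), for MT-ND4L and the 4 genes called higher, with control replicates on the left and doxorubicin replicates on the right. MT-ND4L lay at -0.41 in doxorubicin library 2 and 0.39 in doxorubicin library 3, opposite in sign to MT-ND1, MT-ND3, MT-ND6 and MT-CO3.

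Other mitochondrial rows of the table give context. Of 37 genes annotated on the mitochondrial chromosome 14 were in the table, 11 of 13 protein-coding ones among them. MT-ATP6, a subunit of ATP synthase, went from 8622 ± 215 to 9601 ± 182 TPM (SD, n = 3; log2 fold change 0.16, not called). The rRNA MT-RNR1 rose from 1864 ± 39 to 2257 ± 90.5 TPM, a log2 fold change of 0.28. MT-RNR2, the large rRNA, went from 4263 ± 218 to 4803 ± 234 TPM (log2 fold change 0.17, not called). Under quantile normalization MT-ATP6 and MT-RNR2 turned negative, at -0.18 and -0.14, and MT-RNR1 stayed positive at 0.13. Relative to MT-RNR2 the log2 ratio of MT-ND6 was higher by 0.37 and that of MT-ND1 by 0.23. MT-ATP8 and MT-ND5 were not analysed here.

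Copies of mitochondrial DNA in the nuclear genome can share reads with these genes. MTND6P3 and MTND6P22 on chromosome 5, which match MT-ND6 at 89.0% and 91.3% identity, were at 20.66 and 1.313 TPM in control and at 28.75 and 2.923 TPM after doxorubicin. Both were called higher, with log2 fold changes of 0.46 and 0.77, and their levels were far below that of MT-ND6. MTND6P35 on chromosome 17 was called higher as well, from 9.453 to 18.59 TPM, as was MTRNR2L1, an 88.5% match to MT-RNR2, from 50.72 to 84.28 TPM. MTATP6P1, on chromosome 1 and 98.5% identical to MT-ATP6, went from 766.1 to 882.1 TPM. Copies of MT-CO1 (MTCO1P12, 98.6%), MT-CO2 (MTCO2P12, 98.0%), MT-ND2 (MTND2P28, 98.4%), MT-ND4 (MTND4P12, 95.8%), MT-ND4L (MTND4LP30, 94.9%) and MT-ND6 (MTND6P4, 95.0%) are not among the listed rows, so reads divided with them could not be weighed and the levels of these genes, MT-ND6 included, are uncertain to that extent.

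Nuclear genes supply most subunits of the same complexes, and none of those in the table was called lower after doxorubicin. Of 33 nuclear complex I subunits tested 20 rose, 13 were not called and none fell (median log2 fold change 0.29). NDUFS6 went from 384 to 582 TPM (log2 fold change 0.60) and NDUFA13 from 727 to 1030 TPM (0.50). Of 8 for complex III 3 rose, UQCRQ from 235 to 343 TPM among them, and 5 were not called. Of 11 for complex IV 8 rose and 3 were not called, with COX6B1 going from 705 to 975 TPM (0.47) and COX5B from 236 to 357 TPM (0.59). Counts of genes called higher stand beside 23.4% of all genes tested, a share that varied with transcript length. Of nuclear genes of 400 to under 800 bases 111 of 184 were called higher, and of 800 to under 1200 bases 166 of 309. At 1200 to under 1600 bases 178 of 357 were called higher, and at 1600 or more bases 855 of 4810. The subunits were not compared with genes of like length. With median ratios 33, 8 and 11 subunits of complexes I, III and IV were called higher, beside 2536 of 5721 genes tested. With quantile normalization the counts were 15, 3 and 6, beside 1919 of 5721, and no subunit was called lower under either.

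The mitochondrial genes were also compared with these nuclear partners. The log2 ratio of the mitochondrial to the nuclear subunits, as geometric means inside each library, differed by -0.17 for complex I, -0.14 for complex III and -0.17 for complex IV after doxorubicin, with no overlap between the groups (exact permutation p = 0.1 each). The complex I value rested on MT-ND4L, and without it the difference was 0.03 with overlapping groups (exact permutation p = 0.5). Genes for assembly factors were also mostly higher or not called. For complex I 4 of 5 rose, for complex III 3 of 5 and for complex IV 7 of 12. Beside them stand 23.4% of all genes tested, a share that was higher among shorter nuclear genes. The complex IV count was 12 under median ratios and 9 under quantile normalization, beside 2536 and 1919 of 5721 genes tested. Among them was SURF1, needed for assembly of the MT-CO1 module, going from 21.9 to 40.4 TPM (log2 fold change 0.86).

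The machinery that transcribes mitochondrial DNA was sparsely represented. Of 20 genes for transcription and mtDNA maintenance 5 were in the table and 4 were tested, of which 1 fell and 3 were not called, beside 49% of all genes tested called lower. Under median ratios 2 were called higher and 1 lower, and none was called lower under quantile normalization or with a filter at a mean of 5 TPM. POLRMT was at 25.5 ± 0.94 TPM in control and 27.4 ± 2.32 TPM after doxorubicin (log2 fold change 0.10, limma adjusted p = 0.311). PRIMPOL, a primase-polymerase, fell from 4.78 ± 0.847 to 2.67 ± 0.195 TPM, and SSBP1, which coats single-stranded mtDNA, went from 217 ± 5.99 to 255 ± 6.14 TPM without being called. TFAM, TFB2M, TEFM, TWNK and POLG are not among the listed rows.

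Of 11 genes for mitochondrial RNA processing and decay tested, 4 rose, 2 fell and 5 were not called, beside 23.4% and 49% of all genes tested called higher and lower. Under median ratios 7 were called higher and 2 lower, and under quantile normalization 7 higher and 0 lower. SLIRP, which binds and stabilises mitochondrial mRNAs together with LRPPRC, rose from 329 ± 11.7 to 448 ± 42.5 TPM (log2 fold change 0.44, limma adjusted p = 0.000395). LRPPRC itself is not among the listed rows. SUPV3L1, the helicase of the complex that degrades mitochondrial RNA, rose from 17.2 to 24.7 TPM (0.50), NGRN from 73.6 to 96.9 TPM (0.39) and FASTK from 73.5 to 93.8 TPM (0.35). The genes that fell were PNPT1, the ribonuclease partner of SUPV3L1, from 10.2 to 6.14 TPM (-0.64), and PDE12, which removes poly(A) tails, from 5.86 to 3.63 TPM (-0.58). FASTK is known for its part in stabilising MT-ND6 mRNA. Genes for nucleotide supply to mitochondria showed 1 higher, 2 lower and 4 not called of 7 tested, against the same shares. Under median ratios 4 were called higher and 1 lower, and the 1 higher call, RRM2B, a p53-induced subunit of ribonucleotide reductase (12.7 to 15.7 TPM), was lost when control library 1 or 3 or doxorubicin library 1 or 3 was left out. In TPM SUCLG2 and SAMHD1 were lower at log2 fold changes of -0.49 and -0.69, and DGUOK and MPV17 stood at 0.19 each without a call.

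Of 9 nuclear regulators of mitochondrial genes tested, 4 fell and 5 were not called, beside 49% of all genes tested that were called lower. This balance depended on the scaling, since 3 were called higher and 4 lower after median ratios, and 3 higher and 2 lower after quantile normalization. NRF1, a transcription factor of nuclear respiratory genes, fell from 5.85 to 3.22 TPM (log2 fold change -0.67). GABPA and GABPB1, the subunits of nuclear respiratory factor 2, fell by 0.52 and by 0.58 on the log2 scale. PRKAA1, a catalytic subunit of the energy sensor AMPK, fell from 22.3 to 11.7 TPM (-0.87). PPARGC1A is not among the listed rows.

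Genes outside the 10 whose log2 levels followed the mean of the 10 most closely over the 6 libraries were PCYOX1L (r = 0.9965), EMC6 (0.9961), SRPX2 (0.9957), ZNF576 (0.9957) and GAA (0.9905). A correlation of at least 0.9 was reached by 677 of 5711 genes, and the difference between the groups enters each of them. MT-ND4L, looked up separately after its values were seen, was followed most closely by THBS1 (0.9994). How many genes followed MT-ND4L at 0.9 or more was not counted. Of the 5711 genes, 17.6% had its library order in both groups, and the difference between the groups enters this correlation too.

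Marker genes of cell types were looked up among the listed rows, which hold only genes the authors called changed. Of 18 fibroblast markers 10 were in the table, and their summed level was 12800 to 13100 TPM in control and 10700 to 13000 TPM after doxorubicin. Of these 10, 9 fell and 1 rose, beside 49% and 23.4% of all genes tested called lower and higher. The 4 epithelial markers listed summed to 140 to 156 TPM and then 286 to 311 TPM, most of it KRT19 (107 to 246 TPM), while CLDN4 fell from 4.73 to 2.82 TPM and KRT8 was not called. The 1 endothelial marker was at 8.45 to 9.83 and then 2.29 to 3.27 TPM, and the 2 leukocyte markers summed to 45 to 49 and then 87.4 to 93.7 TPM, nearly all of it CD68, with PTPRC near 0. EPCAM, CDH1, PECAM1, VWF and CD3E are not among the listed rows. Neither are the fibroblast markers COL6A1, COL6A2, DCN, LUM, P4HB, S100A4, THY1 and VIM. Being unlisted therefore does not show that a marker was absent from the cells. The part of these shifts in the results for the mitochondrial genes was not tested.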

How the data were processed

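RNA from WI-38 cells was sequenced as paired reads of 150 bp. The authors deposited 1 table of 6499 genes, each with a value for 3 control and 3 doxorubicin libraries, group means, and the fold change and p-value of their own comparison, which were not used except to check that all 6499 rows pass a fold change over 1.2 and p under 0.05. The unit is not named in the table and was taken as TPM, since the deposited values of the listed genes sum to 54.32% to 59.97% of the full TPM total per library and the submitters' processing notes name RSEM. These notes also list CASAVA, HISAT2, StringTie, DESeq2 and edgeR, without versions, and the build GRCm38, a mouse build, although the identifiers are human. TPM keeps no depth, and read totals are not given in the sources used here.

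The 10 genes and the gene lists were chosen with earlier results of these data known. Samples were grouped by GEO's labels. Values were taken as log2(TPM + 1), genes with a mean under 1 TPM were left out (5721 of 6499 tested), and groups were compared with limma 3.58.1 (trend and robust eBayes, R 4.3.3) with Benjamini-Hochberg adjusted p over all genes tested. Simulated data with known changes were used to check the fit. Single ratios were compared with exact two-sided permutation tests (SciPy 1.17.1). All 10 genes were named, up to 4 genes of each list with the smallest p, a few fixed regulators, other mitochondrial rows and pseudogenes, and the 5 genes most alike, with THBS1, RRM2B, PNPT1, PDE12, HSPD1, CLPX and the markers at 0 or unlisted named after values were seen. Sequences and positions came from GENCODE release 29 (GRCh38; 6462 of 6499 identifiers matched), and nuclear copies from BLAST 2.17.0. Alternatives were another pseudocount, other filters, 3 other scalings, plain eBayes, a replicate block, an adjusted threshold and leaving out each library.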

Additional observations from a re-analysis of the deposited data

How the results depend on the processing

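The count of 4 genes called higher and 1 called lower held in every fit that left out a library. Under quantile normalization, which gives equal ranks equal values, 2 were called higher, and MT-ND2 (-0.041), MT-ND4 (-0.0035), MT-CO1 (-0.11) and MT-CYB (-0.05) turned negative on the log2 scale, while with median ratios 9 were called higher. MT-ND4L was lower under every alternative run, with log2 fold changes of -1.01 to -0.61 when a library was left out. With the replicate number as a block its log2 fold change was again -0.82 but it lost its call, so 0 genes were called lower, and 4 remained the count called higher. The labels do not say whether libraries of the same number belong together. The deviations of same-numbered libraries correlated at -0.06, -0.19 and -0.23, which cannot decide it with 3 libraries a group. Of the 117 genes of the chosen lists tested, cell type markers aside, 51 were called higher and 18 lower, and 92 and 17 with median ratios. Of all 5721 genes tested, 1337 were called higher and 2805 lower, and 2536 and 2102 with median ratios. The share called higher was larger among shorter nuclear genes, and the lists were not compared with genes of like length. The share of TPM held by the 10 genes differed by 0.97 points, or by 0.53 points of the listed TPM. The ratio of MT-ND6 to the heavy-strand genes differed by 0.35 to 0.50 without 1 library. Over all values computed under alternatives, 534 kept their direction and side of the threshold or, for counts, stayed within 1.5 times. Of the rest 38 moved further, 4 reversed, 5 gained and 3 lost a call. MT-CO2 at 0 under quantile normalization was counted among the 534, although its rank of 1 in every library fixed that value. The other pseudocount and filters, plain eBayes, the block and the adjusted threshold left the rounded log2 fold changes of the 10 genes unchanged. Those settings therefore add little to the 534. With the block, the 1 nucleotide-supply gene called higher was lost too (0 called). Depth is unknown, 3 libraries a group cannot reach 0.05 in a permutation test, and the table holds only genes already selected on these libraries.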

Other observations

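Mitochondrial dysfunction is known to be relayed to the nucleus through the integrated stress response, whose transcription factor ATF4 drives amino acid and one-carbon genes. Of 12 genes of a broader mitochondrial stress list tested, which also holds the mitochondrial chaperone HSPD1 and the protease subunit CLPX, 9 fell after doxorubicin, 1 rose and 2 were not called, beside 49% of all genes tested that were called lower, and 9 were called lower under quantile normalization and median ratios too. ATF4 went from 345.7, 323.2 and 355.5 TPM in control to 200.7, 202.0 and 224.1 TPM after doxorubicin (log2 fold change -0.71, limma adjusted p = 9.84e-06). All doxorubicin libraries lay below all control libraries. Its serine-synthesis targets PSAT1 and PHGDH fell from 63.5 to 13.8 TPM and from 110 to 29.2 TPM, and the mitochondrial one-carbon enzyme SHMT2 fell from 141 to 64 TPM. GDF15, a secreted stress signal that is also a p53 target, rose from 44.6 ± 2.28 to 128 ± 10.7 TPM (log2 fold change 1.5, limma adjusted p = 1.65e-07). ATF4 is outside the rule for named genes and was named after its values were seen.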
